A study of Mus musculus with 14 samples.

Results

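The TEAD transcription factors and the cofactors that bind them were followed through 9 mouse genes: Tead1, Tead2, Tead3, Tead4, Vgll2, Vgll3, Vgll4, Yap1 and Wwtr1. They were chosen by name, but with earlier results of these data known, and the paralog Vgll1 is not among them. Each of the 9 matched 1 gene of the 54446 in the count table, and all 9 passed the filter on low counts that left 17987 genes for testing. Vgll2 passed that filter only through libraries with YAP5SA, so counts of changed members are also given for the other 8. The RNA came from nuclei of hearts of ICR mice, an outbred strain, enriched for PCM1, a protein of the cardiomyocyte nuclear envelope. Mice were injected intraperitoneally on postnatal day 7, and hearts were collected on postnatal day 12. The Control group (n = 5 libraries) got no virus. The MEF2A group (n = 4) got AAV9:cTnT-hMEF2A, which carries human MEF2A, a muscle transcription factor. The YAP5SA group (n = 3) got AAV9:cTnT-YAP5SA, which carries YAP5SA, an active form of YAP that the Hippo kinases no longer hold back. The YAP5SA_MEF2A group (n = 2) got both. The dose was 1E11 genome copies of each virus. The cTnT (cardiac troponin T) promoter drives the transgenes in cardiomyocytes, and no group got a virus without a transgene, so virus and transgene cannot be told apart. Whether libraries came from different animals is not in the labels, so the spread behind each p-value is that of these libraries and may be technical.

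TEAD proteins bind DNA at the MCAT element through their TEA domain and activate transcription little by themselves. YAP, encoded by Yap1, and its paralog TAZ, encoded by Wwtr1, are coactivators that Hippo kinases keep out of the nucleus, and they act on genes mostly through TEAD. Vestigial-like proteins, encoded by the Vgll genes, bind the same face of TEAD as YAP and TAZ. In the heart, TEAD1 is required for development of the ventricular wall, and YAP drives cardiomyocyte growth and division before and shortly after birth.

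The members lie on 7 chromosomes of the mouse build GRCm38, per GENCODE vM21. Tead1 (ENSMUSG00000055320) spans chr7:112679318-112906807 on the plus strand, and Tead2 (ENSMUSG00000030796) spans chr7:45215753-45233644 on the plus strand. Tead3 (ENSMUSG00000002249) spans chr17:28331671-28350817 and Tead4 (ENSMUSG00000030353) spans chr6:128224288-128300823, both on the minus strand. Vgll2 (ENSMUSG00000049641) spans chr10:52022502-52028471 and Vgll3 (ENSMUSG00000091243) spans chr16:65815257-65866368, both on the plus strand. Vgll4 (ENSMUSG00000030315) spans chr6:114860628-114969994, Yap1 (ENSMUSG00000053110) spans chr9:7931999-8004596 and Wwtr1 (ENSMUSG00000027803) spans chr3:57455649-57575910, all on the minus strand. The libraries carry no strand. Tead2 shares 13 exonic bases with Cd37 on the opposite strand (4 to 292 counts per library), and Yap1 shares 116 with Gm20416 on the opposite strand, which had 0 counts in every library.

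Because TEAD factors read the MCAT element, its core was searched as CATTCC or GGAATG, the same letters on either strand, in the 250 bases before each transcription start of the RefSeq promoter table (GRCm38.p6). The table held 7 of the 9 members with 10 starts. Tead1 and Tead4 were not in it and were not searched. The core was found before 7 of these 10 starts, against 12.642% of all 32851 starts in the table. It lay before the starts of Vgll3, Vgll4, Yap1 and Wwtr1 and before 2 of 3 starts of Tead3, but not before those of Tead2 and Vgll2. The 10 starts are not separate cases, because the 2 starts of Wwtr1 share their site and the windows of these 2 Tead3 starts overlap. The MEF2 box, the element read by MEF2A, was found before 0 of the 10 starts and before 0.508% of all starts. A match is a description of these letters, not a binding site. The window before Vgll3, the member with the largest change below, is shown whole (chr16:65814939-65815188, plus strand), with the MCAT core in capitals, 63 bases before the start.
Vgll3: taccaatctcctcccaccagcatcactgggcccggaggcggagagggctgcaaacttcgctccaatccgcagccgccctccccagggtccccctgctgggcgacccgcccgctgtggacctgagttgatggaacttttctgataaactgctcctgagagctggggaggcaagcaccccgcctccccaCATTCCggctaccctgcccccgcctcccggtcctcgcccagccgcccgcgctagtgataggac

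The 30 bases around the core before the other starts are shown so that the flanks can be compared, each in the direction of its gene, with the core in capitals. They lie at chr6:114969268-114969297 for Vgll4 and chr9:8004720-8004749 for Yap1. They lie at chr3:57576029-57576058 for Wwtr1, whose 2 starts share the site, and at chr17:28350970-28350999 and chr17:28350706-28350735 for 2 starts of Tead3. All of these genes are on the minus strand.
Vgll4: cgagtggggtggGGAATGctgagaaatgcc
Yap1: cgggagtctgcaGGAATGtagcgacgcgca
Wwtr1: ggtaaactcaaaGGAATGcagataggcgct
Tead3, start 1: gacgacgagcgaGGAATGgggtgcgcggga
Tead3, start 2: tccggccgggctCATTCCgtacattccggc
The second start of Tead3 holds a further core a few bases on, in lower case in its window.

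Total counts ran from 16171068 to 24027622 per library. Genes of the mitochondrial chromosome took 60.7% and 67.5% of counts in Controls 1 and 2, 32.2% in YAP5SA 3 and 3.80% to 23.2% in the other libraries. Controls 1 and 2 are the only Controls of batch 1, which held 2 libraries of each group. Batch 2 held 3 Control, 2 MEF2A and 1 YAP5SA libraries. Sex, read from Xist and Y-linked genes, was male in each YAP5SA library and female in each YAP5SA_MEF2A library. Control held 3 male and 2 female libraries, and MEF2A held 1 male and 3 female. The 10 cardiomyocyte markers were detected in every library, with a summed CPM (a count scaled to the library total) of 50737 to 83595 in Control, 80256 to 82682 in MEF2A, 27596 to 39553 in YAP5SA and 37797 to 42240 in YAP5SA_MEF2A. In such bulk samples, fewer cardiomyocytes and less of these RNAs per cardiomyocyte cannot be told apart. Fibroblast markers summed to 1562 to 2603 CPM in Control, 1708 to 2412 in MEF2A, 2115 to 3862 in YAP5SA and 1800 to 1903 in YAP5SA_MEF2A.

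Without YAP5SA, TEAD transcripts were mostly Tead3, and the VGLL genes were near or at 0. On the scale of CPM per kb of exon, which allows levels of different genes to be compared, Control libraries had 51.3 ± 19.9 (mean ± SD, n = 5) for Tead3, 22.6 ± 2.15 for Tead2 and 13.8 ± 2.35 for Tead1. Yap1 followed with 6.91 ± 1.09 and Wwtr1 with 2.77 ± 1.71. Tead4 had 0.939 ± 0.270, Vgll4 0.628 ± 0.280 and Vgll3 0.0795 ± 0.0695 CPM per kb, and Vgll2 was at 0. Neighbours in this order overlapped between Wwtr1 and Tead4, between Tead4 and Vgll4, and between Vgll3 and Vgll2. The order was the same in MEF2A, where the level of Vgll3 was 0.261 ± 0.0964 CPM per kb (n = 4).

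By group mean, Tead1 stood above Tead2 with YAP5SA, and Vgll3 moved up the order. In YAP5SA 2 alone of these libraries, Tead2 was above Tead1, at 18.5% and 14.1% of TEAD transcripts per kb. In the YAP5SA group the levels per kb were 81.9 ± 18.2 (n = 3) for Tead3, 21.9 ± 5.61 for Tead1, 13.5 ± 8.86 for Tead2, 6.02 ± 2.03 for Yap1 and 4.92 ± 2.76 for Vgll3. Below them came Tead4 (3.24 ± 0.590), Wwtr1 (2.74 ± 1.05), Vgll4 (1.71 ± 0.267) and Vgll2 (0.262 ± 0.326). Here the neighbours from Tead1 down to Vgll4 overlapped, and Tead3 and Vgll2 stood apart. In YAP5SA_MEF2A the order was Tead3, Tead1, Tead2, Yap1, Tead4, Vgll3, Vgll4, Wwtr1 and Vgll2, with no overlap between neighbours over 2 libraries. Per kb of the longest transcript in place of all exons, Vgll4 ranked above Tead4 in Control, above Tead4 and Wwtr1 in YAP5SA, and above Tead4 and Vgll3 in YAP5SA_MEF2A.

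**Figure D1:**
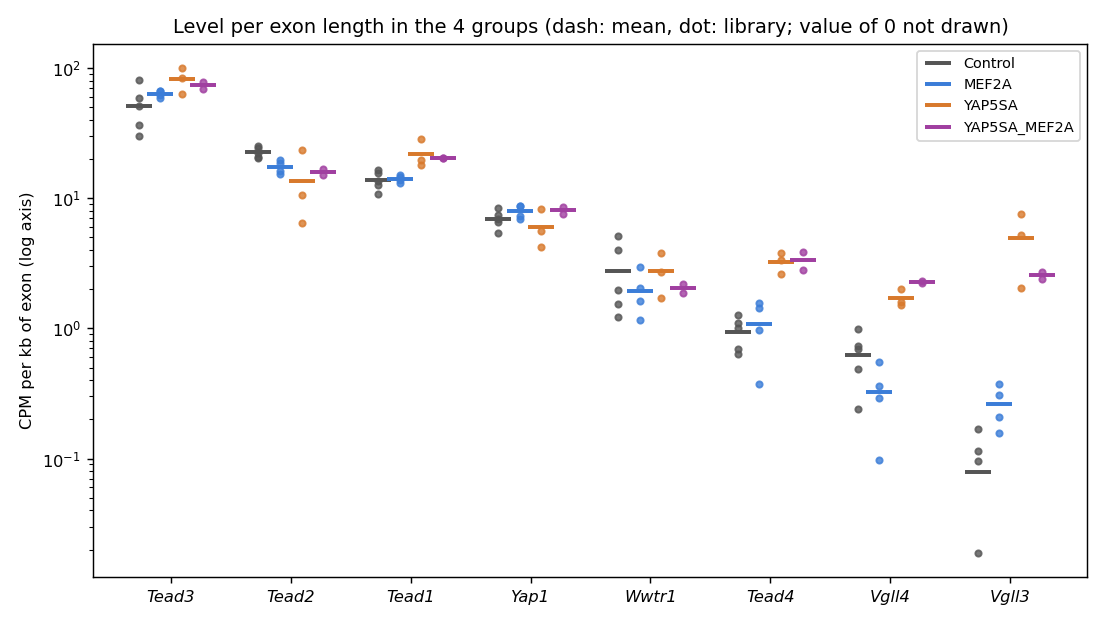
CPM per kb of exon on a log axis for 8 members in the 4 groups, with a dot for each library and a dash for the mean; Vgll2, and Vgll3 in Control 2, which were at 0, are not drawn. Tead3 had the highest mean in every group, and Vgll3 and Vgll4 were higher in all libraries with YAP5SA than in all without.

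Of the DNA-binding factors, Tead1 and Tead4 were higher in every library with YAP5SA than in every library without it. Tead1, the TEAD best known from the heart, had 145, 212, 225, 184 and 171 CPM in Controls 1 to 5 and 177, 199, 206 and 186 CPM in MEF2A 1 to 4. It had 384, 242 and 264 CPM in YAP5SA 1 to 3 and 278 and 277 CPM in YAP5SA_MEF2A 1 and 2. The lowest library with YAP5SA stood above the highest without, which was Control 3. Tead4, best known from the early embryo and from skeletal muscle, had 3.63, 2.48, 2.28, 3.97 and 4.54 CPM in Controls 1 to 5 and 3.48, 5.61, 5.13 and 1.34 CPM in MEF2A 1 to 4. Its levels were 13.6, 9.38 and 12.1 CPM in YAP5SA 1 to 3 and 10.2 and 13.8 CPM in YAP5SA_MEF2A 1 and 2. The groups did not overlap, and behind the Control values were 19 to 118 counts per library.

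Tead3, the TEAD with the most reads per kb, overlapped between the groups. It had 246, 200, 541, 392 and 343 CPM in Controls 1 to 5, 448, 396, 443 and 413 CPM in MEF2A 1 to 4, 668, 558 and 424 CPM in YAP5SA 1 to 3, and 523 and 465 CPM in YAP5SA_MEF2A 1 and 2. The 2 lowest values were those of Controls 1 and 2, the libraries rich in mitochondrial transcripts. Tead2, known for its part in the early embryo, had 99.7, 96.8, 107, 121 and 117 CPM in Controls 1 to 5 and 93.8, 72.8, 89.0 and 77.8 CPM in MEF2A 1 to 4. It had 51.0, 112 and 30.9 CPM in YAP5SA 1 to 3 and 79.5 and 72.1 CPM in YAP5SA_MEF2A 1 and 2. YAP5SA 2 lay among the Controls while YAP5SA 1 and 3 lay below all libraries without YAP5SA.

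The 3 VGLL genes were higher in every library with YAP5SA than in every library without it. Vgll3, a TEAD cofactor known from muscle and skin, had 6, 0, 20, 4 and 31 counts in Controls 1 to 5, which is 0.680, 0, 0.816, 0.134 and 1.19 CPM. MEF2A 1 to 4 had 1.47, 1.12, 2.64 and 2.19 CPM. The level was 53.5, 14.4 and 36.9 CPM in YAP5SA 1 to 3 and 19.1 and 17.1 CPM in YAP5SA_MEF2A 1 and 2. The lowest library with YAP5SA, YAP5SA 2, was far above the highest without, MEF2A 3.

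Vgll4, whose protein is known to displace YAP from TEAD, had 5.32, 1.30, 2.61, 3.73 and 3.96 CPM in Controls 1 to 5 and 1.96, 2.99, 0.528 and 1.58 CPM in MEF2A 1 to 4. It had 10.9, 8.19 and 8.62 CPM in YAP5SA 1 to 3 and 11.98 and 12.5 CPM in YAP5SA_MEF2A 1 and 2. All libraries with YAP5SA were above all without. Vgll2, a cofactor of skeletal muscle, had 0 counts in each of the 9 libraries without YAP5SA. There were 4, 2 and 21 counts in YAP5SA 1 to 3 and 11 and 9 in YAP5SA_MEF2A 1 and 2. Against a floor of 3 counts over the whole reference group, this was at least 12.8-fold higher in YAP5SA than in Control and at least 9.47-fold higher in YAP5SA_MEF2A than in MEF2A, with counting error only. YAP5SA 3 holds 21 of the 27 counts in YAP5SA, and without it the bound is 4.01-fold.

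The coactivators themselves overlapped between the groups. Yap1 had 68.4, 60.9, 49.9, 63.5 and 77.3 CPM in Controls 1 to 5, 81.2, 80.5, 64.1 and 67.2 CPM in MEF2A 1 to 4, 51.6, 76.2 and 39.3 CPM in YAP5SA 1 to 3, and 70.2 and 79.3 CPM in YAP5SA_MEF2A 1 and 2. YAP5SA 3 alone lay below the range of the libraries without YAP5SA, and no library lay above it. Whether reads of the YAP5SA transgene were counted at Yap1 was not tested. Wwtr1 had 19.1, 24.5, 5.79, 7.36 and 9.39 CPM in Controls 1 to 5, 7.73, 5.55, 9.74 and 14.2 CPM in MEF2A 1 to 4, 12.98, 8.14 and 18.1 CPM in YAP5SA 1 to 3, and 8.99 and 10.5 CPM in YAP5SA_MEF2A 1 and 2. Its highest values were in Controls 1 and 2, and the libraries with YAP5SA lay within the range of those without.

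In all, 5 of 9 members (Tead1, Tead4, Vgll2, Vgll3 and Vgll4) were above without overlap in libraries with YAP5SA, where 5.11% of the 17987 genes tested were. Without Vgll2, which passed the filter only through the libraries with YAP5SA, it is 4 of 8. Not 1 of the 9 was below without overlap, where 2.92% of genes tested were.

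**Figure D2:**
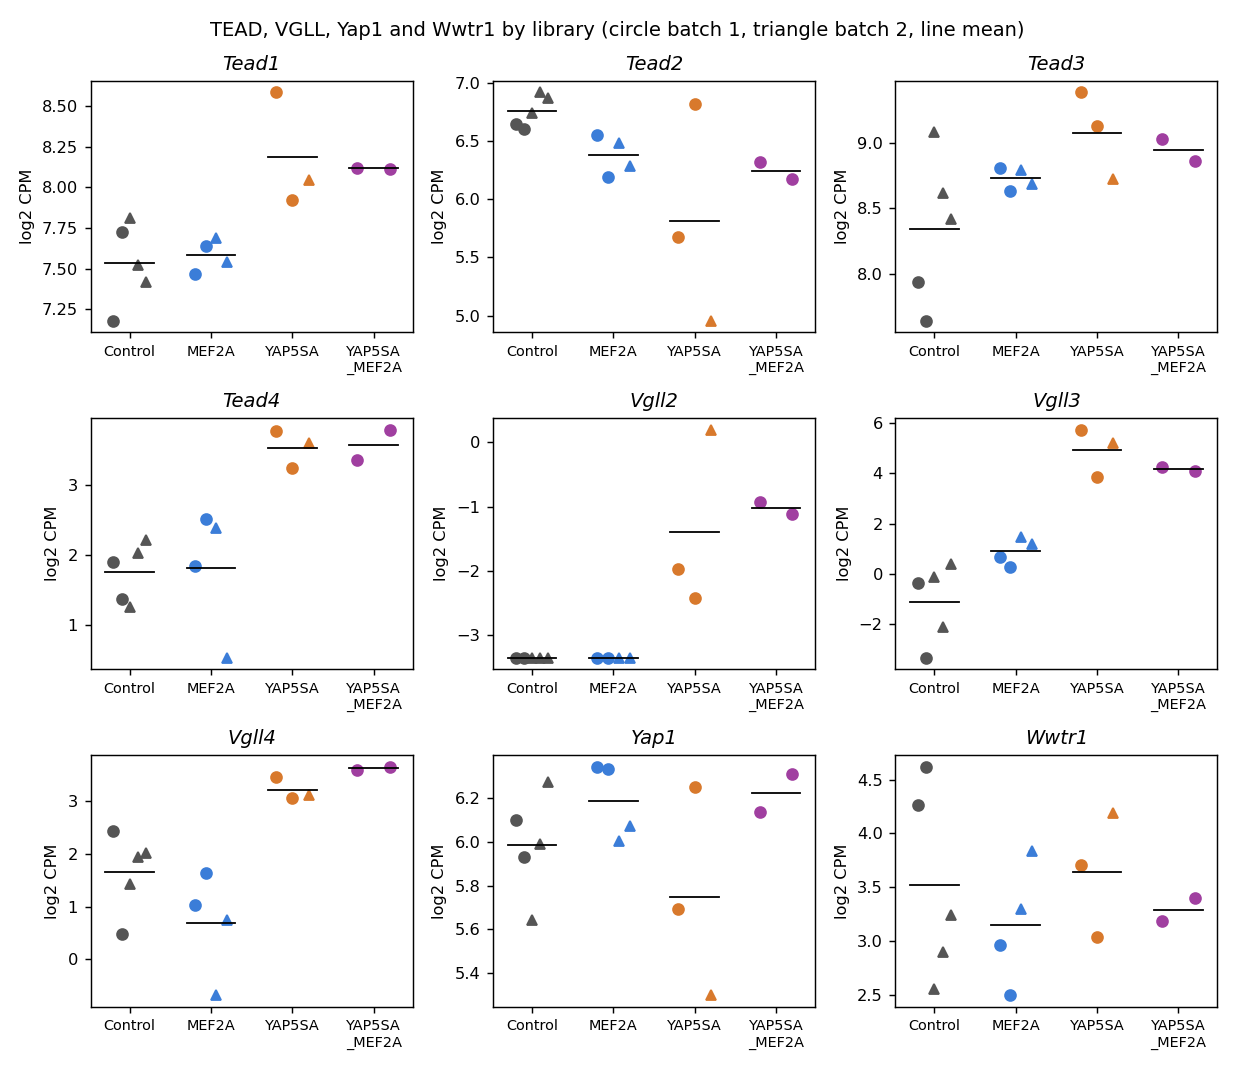
The log2 CPM (prior count 2) of each of the 9 members in the 14 libraries, by group, with circles for batch 1, triangles for batch 2 and a line at the group mean. Tead1, Tead4, Vgll2, Vgll3 and Vgll4 do not overlap between libraries with and without YAP5SA, and the other 4 members do.

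YAP5SA against Control measures the change with active YAP, and YAP5SA_MEF2A against MEF2A measures it where MEF2A was delivered too. These comparisons share no library, but 1 fit over the 14 libraries gave both their spread and their batch term, so they are not independent. Leaving out Controls 1 and 2 moved Wwtr1 in YAP5SA_MEF2A against MEF2A from -0.05 to 0.56. In YAP5SA against Control, edgeR's quasi-likelihood test called 3 of 9 members, all higher, where it called 9.85% of genes tested in either direction, 5.68% as higher and 4.16% as lower. Vgll3 rose by 6.15 ± 0.64 (log2 fold change ± SE, adjusted p = 5.07e-05), Tead4 by 1.76 ± 0.42 (adjusted p = 0.0126), a 3.39-fold change, and Tead1 by 0.67 ± 0.19 (adjusted p = 0.0345), a 1.59-fold change. The fitted changes that did not pass in edgeR's test were 0.81 ± 0.26 for Tead3 (adjusted p = 0.0576), 1.30 ± 0.47 for Vgll4 (adjusted p = 0.0831) and -0.83 ± 0.31 for Tead2 (adjusted p = 0.0973). Vgll2 had an adjusted p of 0.07 in edgeR's test. Yap1 (-0.30 ± 0.20, edgeR adjusted p = 0.389) and Wwtr1 (0.02 ± 0.45, edgeR adjusted p = 0.988) were farther from the threshold. The median over the 9 members was 0.81, against 0.06 over all genes tested, and it is the same with Vgll2 at its bound.

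Within batch 1, Vgll3 differed by 6.49 and Tead4 by 1.86 on the log2 scale, and within batch 2, with 1 YAP5SA library, by 5.69 and 1.74. Tead1 differed by 0.77 and 0.45. Tead3 differed by 1.41 in batch 1 and by -0.01 in batch 2, and Tead2 by -0.31 and -1.89. Wwtr1 differed by -1.09 in batch 1 and by 1.27 in batch 2. In batch 1, Vgll3 (adjusted p = 0.00652) and Tead4 (0.0331) passed edgeR's test and Tead1 did not (0.0887). A test in batch 2 takes the spread of its lone YAP5SA library to be that of the other groups, so its values are given without one. The call of Tead4 ended without YAP5SA 1 (edgeR adjusted p = 0.0597) or YAP5SA 3 (0.108). The call of Tead1 held in 15 of 31 alternative settings.

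In YAP5SA_MEF2A against MEF2A, edgeR called 2 of 9 members, both higher, where it called 2.32% of genes tested in either direction, 1.61% as higher and 0.712% as lower. Vgll3 rose by 3.67 ± 0.70 (edgeR adjusted p = 0.0135), a 12.7-fold change, and Vgll4 by 2.65 ± 0.55 (adjusted p = 0.0161), a 6.26-fold change. Tead4 had 1.60 ± 0.50 (edgeR adjusted p = 0.11), Tead1 0.54 ± 0.23 (0.268), Tead3 0.35 ± 0.30 (0.657) and Tead2 -0.24 ± 0.36 (0.841). Yap1 had -0.10 ± 0.24 (edgeR adjusted p = 0.915) and Wwtr1 -0.05 ± 0.58 (0.99), and Vgll2 had an adjusted p of 0.172. The median over the 9 was 0.54, against 0.05 over all genes tested. Only batch 1 holds YAP5SA_MEF2A libraries. Vgll3 lost its call without MEF2A 1 or 2 or either YAP5SA_MEF2A library (edgeR adjusted p = 0.0574, 0.0739, 0.12 and 0.0878), with changes of 3.48 to 3.77. Vgll4 lost its call without MEF2A 1 or either YAP5SA_MEF2A library (edgeR adjusted p = 0.0536, 0.125 and 0.135), with changes of 2.62 to 2.68, and within batch 1 (2.30, 0.0877).

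**Figure D3:**
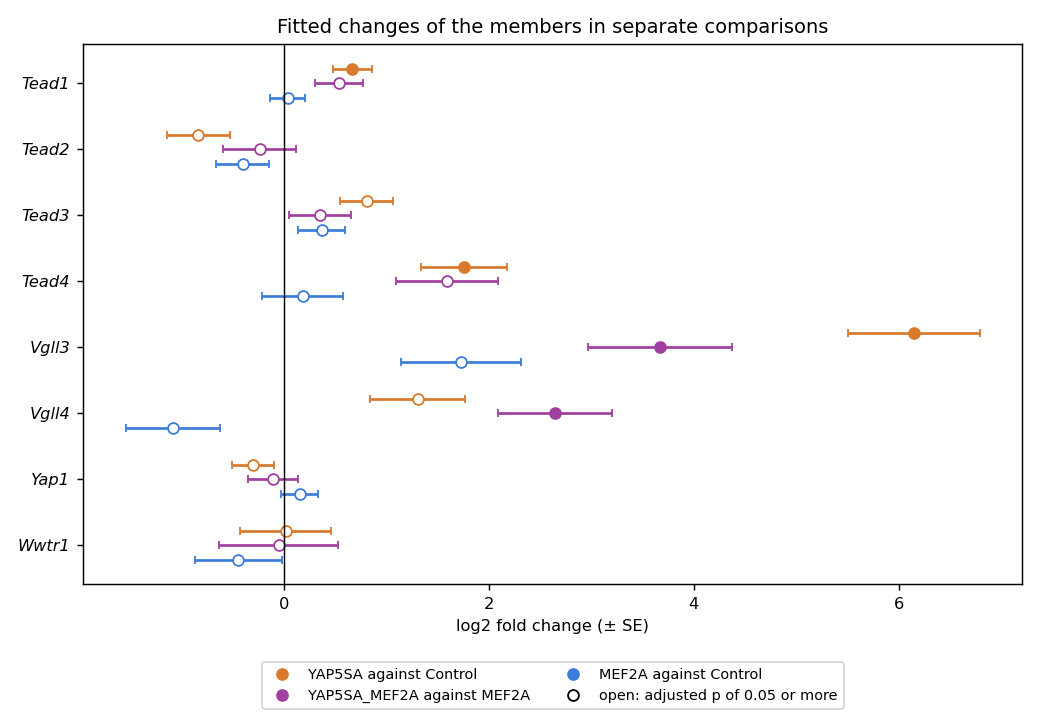
Fitted log2 fold change with its SE for 8 members in YAP5SA against Control, YAP5SA_MEF2A against MEF2A and MEF2A against Control; filled points have an adjusted p under 0.05 in edgeR's test, and Vgll2 is left out because its reference libraries are at 0. Tead1, Tead3, Tead4, Vgll3 and Vgll4 lie above 0 in both comparisons of YAP5SA, at 0.67 and 0.54 for Tead1 and at 6.15 and 3.67 for Vgll3.

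The mean effect of YAP5SA averages the changes of these comparisons, and so uses the same libraries again with more of them per side. In it edgeR called 5 of 9 members, all higher, or 4 of the 8 without Vgll2, where it called 15.4% of genes tested in either direction, 8.53% as higher and 6.85% as lower. Vgll3 rose by 4.91 ± 0.50 (edgeR adjusted p = 2.16e-05), Vgll4 by 1.98 ± 0.37 (0.00183), Tead4 by 1.68 ± 0.34 (0.00287) and Tead1 by 0.60 ± 0.16 (0.0153). Vgll2 was the other (edgeR adjusted p = 0.0151). Tead3 had 0.58 ± 0.21 (edgeR adjusted p = 0.0734), Tead2 -0.53 ± 0.25 (0.163), Yap1 -0.20 ± 0.17 (0.458) and Wwtr1 -0.02 ± 0.36 (0.99).

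The calls of the mean effect rested on different numbers of libraries. Vgll3 passed in all 29 alternative settings, with changes of 4.56 to 5.48. Without the 3 libraries rich in mitochondrial transcripts (Controls 1 and 2 and YAP5SA 3), Vgll3 had 5.15 (edgeR adjusted p = 0.0112) while Tead4 had 1.31 (0.254), Vgll4 1.28 (0.209) and Tead1 0.67 (0.156). With Controls 1 and 2 alone left out, Tead4 (1.53, edgeR adjusted p = 0.0142), Vgll4 (1.75, 0.00438) and Tead1 (0.55, 0.0475) passed. Tead1 missed the threshold without MEF2A 1 (0.56, edgeR adjusted p = 0.051), YAP5SA_MEF2A 1 (0.61, 0.0698) or YAP5SA_MEF2A 2 (0.62, 0.0602), and Vgll2 without either YAP5SA_MEF2A library (adjusted p = 0.0626 and 0.0526). Tead2 passed without YAP5SA 2 (-0.78, edgeR adjusted p = 0.00215). Tead3 passed without Control 3 (0.60, 0.027) or YAP5SA 3 (0.82, 0.0168), but its change was 0.18 (0.565) without Controls 1 and 2. Wwtr1 had 0.93 (edgeR adjusted p = 0.0309) without Controls 1 and 2.

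**Figure D4:**
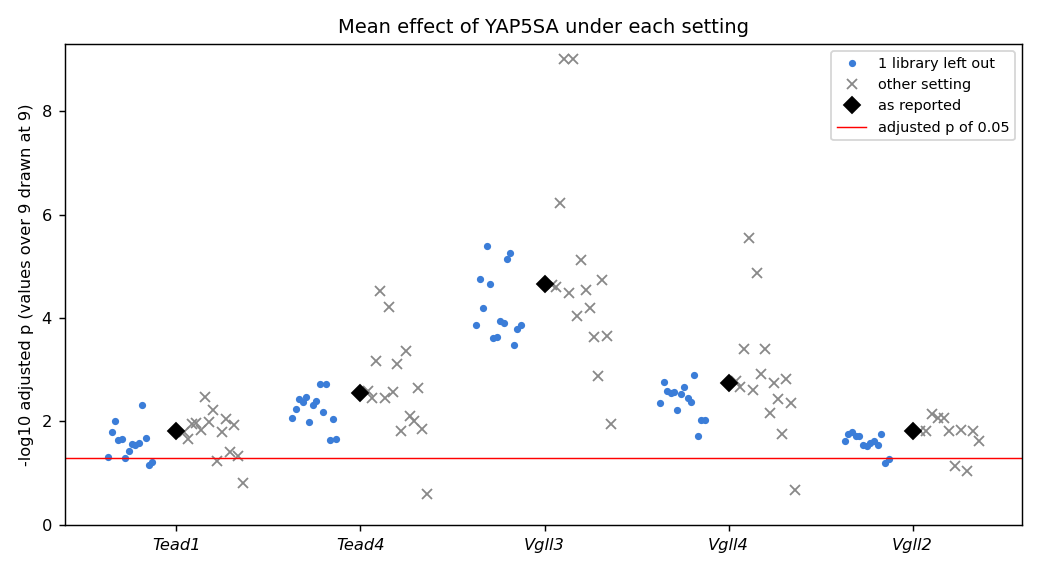
Adjusted p, as -log10, of the 5 members called in the mean effect of YAP5SA, as reported (diamond), with 1 library left out (dots) and under the other settings (crosses), with a line at an adjusted p of 0.05. Vgll3 stays above the line throughout, and the other 4 have 1 or more points below it.

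Some markers of other cells differed with YAP5SA. In the mean effect, where edgeR called 8.53% of genes tested as higher and 6.85% as lower, it called 3 of 12 macrophage markers higher and 5 of 12 endothelial markers lower. The endothelial calls were lost with library totals as the only scaling, where the list's median was -0.06 against 0.69 over all genes tested. They were also lost without Controls 1 and 2 and YAP5SA 3, where the list's median was -0.24. Near the share over all genes were the fibroblast markers (1 of 12 higher and 1 lower), the mural cell markers (1 of 8 higher) and the 7 tested epicardial, Schwann and adipose markers (1 higher). Macrophage markers summed to 55.6 to 209 CPM in Control, 62.7 to 103 in MEF2A, 86.0 to 1092 in YAP5SA and 96.8 to 98.3 in YAP5SA_MEF2A. The 1092 CPM were in YAP5SA 3, and YAP5SA 1 and 2 had 203 and 86.0. The macrophage markers had a median log2 fold change of 1.33 in the mean effect, and of 0.83 without Controls 1 and 2 and YAP5SA 3, where they lost their calls. With a covariate for these lists, edgeR gave 4.85 for Vgll3 (adjusted p = 2.33e-04), 2.02 for Vgll4 (0.00369), 1.56 for Tead4 (0.00782), 0.63 for Tead1 (0.00905) and 0.78 for Tead3 (9.76e-04), and Vgll2 missed the threshold (0.0922). With a term for sex, the 5 calls of the mean effect held. In YAP5SA against Control with that term, Vgll3 and Tead4 passed and Tead1 did not (0.65, edgeR adjusted p = 0.0534). Of the 10 cardiomyocyte markers, which the covariate does not hold, edgeR called 6 lower in the mean effect, against 6.85% of genes tested. Their median log2 fold change was -0.68. It called 1 lower without Controls 1 and 2 and YAP5SA 3, against 0.856% of genes tested, and 0 with library totals as the only scaling, against 0.3%.

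Vgll2, Vgll3 and Tead4 are known from skeletal muscle. Of 10 skeletal muscle markers 6 were tested, and edgeR called 3 higher (Myog, Myh1 and Myh2) and 1 lower (Tnnt3) in the mean effect, against the same 8.53% and 6.85% of genes tested. Without Controls 1 and 2 and YAP5SA 3 it called 1 higher (Myh2), where it called 1.29% of genes tested as higher. The summed level of the list was 7.005 to 26.5 CPM in Control, 12.02 to 17.3 in MEF2A, 32.0 to 61.9 in YAP5SA and 135 to 163 in YAP5SA_MEF2A. Myod1, a factor of the myogenic lineage, and Pax7, a marker of its stem cells, had 0 counts in all 14 libraries. Myf5 and Myog, also on the list, were detected in part of them, with 0 counts in 7 and 8 libraries. The part of other cell types in the changes of Vgll2, Vgll3 and Tead4 was not tested beyond the covariate, which does not hold the skeletal muscle list.

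MEF2A against Control asks what MEF2A changes by itself. It shares its Controls with YAP5SA against Control. In it edgeR called 0 of 9 members, where 0.0167% of genes tested were called. At an unadjusted p under 0.05 there were 2, Vgll3 and Vgll4, where 7.27% of genes tested were, and DESeq2 and limma-voom called 0 each. Vgll3 had 1.73 ± 0.58 (edgeR adjusted p = 0.606), and Vgll4 had -1.08 ± 0.46 (0.647). For Vgll3, 3 of 4 MEF2A libraries were above all Controls.

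YAP5SA_MEF2A against YAP5SA asks what MEF2A changes where YAP5SA is present. Here edgeR called 0 of 9 members and 0% of genes tested, with 0 members at an unadjusted p under 0.05, where 2.87% of genes tested were, and 0 by DESeq2 or limma-voom. Every YAP5SA library is male and every YAP5SA_MEF2A library female, so within these groups sex and MEF2A cannot be told apart. With a term for sex, estimated from the other groups, Tead4 moved from 0.02 to -1.15 (edgeR adjusted p = 1). The interaction asks whether the change with YAP5SA differs with MEF2A. In it edgeR called 0 of 9 members and 0% of genes tested, and DESeq2 and limma-voom called 0 members each. Vgll3 alone had an unadjusted p under 0.05, where 2.45% of genes tested did, with -2.47 ± 0.90 (edgeR adjusted p = 1), and Vgll4 had 1.34 ± 0.71 (edgeR adjusted p = 1). With no filter on low counts, edgeR called Vgll3 (-2.47, adjusted p = 0.0198), where it called 0.206% of genes. For Vgll4 the changes in these comparisons were not shown to differ, and for Vgll3 the call rests on the filter.

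Shares within a gene family do not depend on how libraries are scaled. Tead3 made up 56.3% ± 8.18 (mean ± SD, n = 5) of TEAD transcripts per kb in Control, 66.0% ± 0.890 (n = 4) in MEF2A, 67.9% ± 2.29 (n = 3) in YAP5SA and 65.0% ± 1.65 (n = 2) in YAP5SA_MEF2A. Tead2 made up 26.4% ± 4.82, 18.1% ± 1.14, 10.98% ± 6.49 and 13.98% ± 0.155 in the same order. Tead4 made up 1.11% ± 0.373, 1.13% ± 0.573, 2.78% ± 0.798 and 2.97% ± 0.808. The share of Tead4 was thus small in every group.

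**Figure D5:**
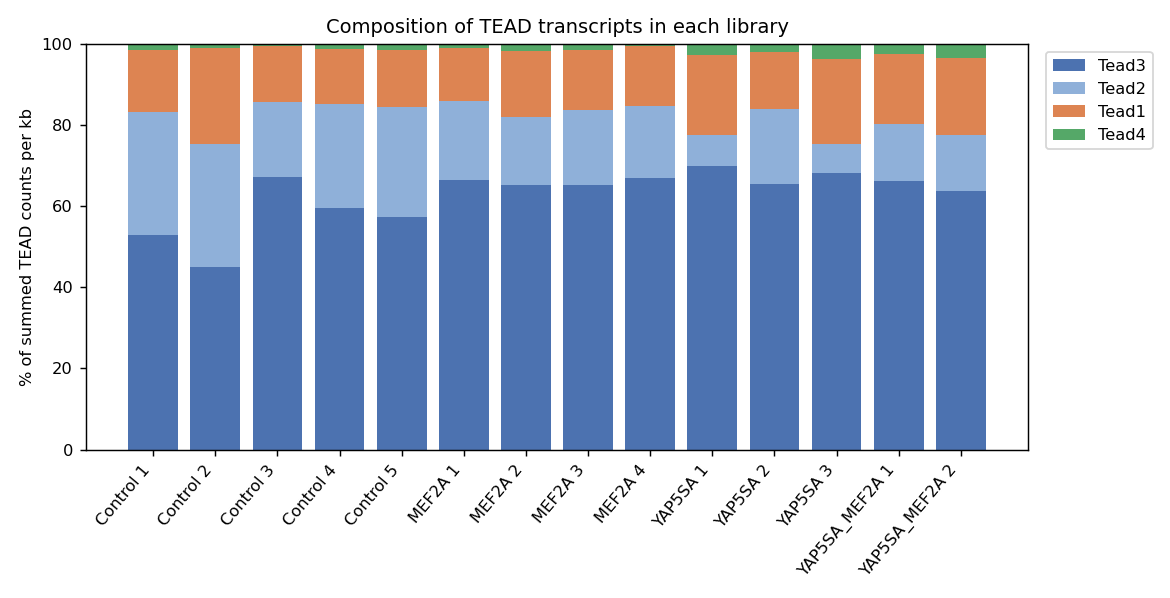
Percent of summed TEAD counts per kb of exon in each of the 14 libraries. Tead3 is the largest part everywhere, from 44.9% in Control 2 to 70.0% in YAP5SA 1, and Tead4 is the smallest.

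The 3 shares were tested between the 5 libraries with YAP5SA and the 9 without, by a two-sided exact permutation test within batch over 420 arrangements, with Benjamini-Hochberg adjustment over the 3. The share of Vgll3 among VGLL transcripts was 61.0% ± 12.5 with YAP5SA and 26.5% ± 25.5 without, a difference of 34.6 percentage points (exact p = 0.00714, adjusted p = 0.0214). The ranges overlapped, at 48.7% to 78.1% with YAP5SA and 0% to 79.2% without, where the highest was MEF2A 3, with 11 counts of Vgll4. By group, the mean share of Vgll3 was 9.86% (0% to 19.2%, n = 5) in Control and 68.1% (56.3% to 78.1%, n = 3) in YAP5SA. It was 47.2% (22.2% to 79.2%, n = 4) in MEF2A and 50.4% (48.7% to 52.1%, n = 2) in YAP5SA_MEF2A. The means thus lay close together where MEF2A was delivered and far apart where it was not. The permutation kept batch fixed but not MEF2A delivery. The call ended without Control 3 (33.7 points, exact permutation adjusted p = 0.0514) or YAP5SA 3 (32.4 points, 0.0857), and within batch 1 the difference was 42.0 points (0.0857).

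The share of Tead1 among TEAD transcripts was 18.2% ± 2.71 with YAP5SA and 15.5% ± 3.15 without (exact p = 0.231, adjusted p = 0.346). Without Control 2, which had the highest share, the difference was 3.72 points (exact permutation adjusted p = 0.0286), against 2.72 with it. The share of Wwtr1 in the sum of Yap1 and Wwtr1 was 27.5% ± 12.6 with YAP5SA and 23.8% ± 10.3 without (exact p = 0.49, adjusted p = 0.49). This difference of 3.71 points was -4.05 within batch 1, -1.22 without YAP5SA 3 and 8.21 without Controls 1 and 2 (exact permutation adjusted p = 0.886, 0.886 and 0.0333).

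As a description chosen after its parts were seen, VGLL transcripts per 100 TEAD transcripts, both per kb, were 0.832 ± 0.478 (range 0.364 to 1.57) in Control and 0.618 ± 0.138 (0.464 to 0.788) in MEF2A. They were 5.89 ± 2.72 (2.83 to 8.05) in YAP5SA and 4.47 ± 0.114 (4.39 to 4.55) in YAP5SA_MEF2A. The same ratio of Yap1 and Wwtr1 to TEAD was 11.9 ± 5.16, 10.3 ± 1.03, 7.45 ± 1.47 and 8.97 ± 1.33.

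The rest of the Hippo pathway was read from lists chosen by role. Among 23 upstream kinases and scaffolds, 6 rose and 0 fell in the mean effect of YAP5SA, where 8.53% of genes tested rose and 6.85% fell, with a median log2 fold change of 0.26 against 0.06 over all genes tested. Wwc1, which encodes the scaffold KIBRA, rose by 4.18 ± 0.34 (edgeR adjusted p = 1.06e-06), from 3.30 ± 1.63 CPM in Control (mean ± SD, n = 5) to 54.9 ± 20.5 in YAP5SA (n = 3). Amotl2, an angiomotin that binds YAP, rose by 3.13 ± 0.28 (adjusted p = 5.32e-06). The other 4 were Ajuba, Sav1, Stk4 and Lats2. Without Controls 1 and 2 and YAP5SA 3, Wwc1, Amotl2 and Ajuba passed, 3 of 23, where 1.29% of genes tested rose. In YAP5SA against Control 4 rose, against 5.68% of genes tested, and in YAP5SA_MEF2A against MEF2A 3, against 1.61%.

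Of 8 genes of YAP and TAZ retention and turnover, 2 rose and 2 fell in the mean effect, against 8.53% and 6.85% of genes tested. Ywhaz, a 14-3-3 protein, rose by 0.63 ± 0.16 (edgeR adjusted p = 0.0114), and Btrc, a ubiquitin ligase subunit, fell by 0.64 ± 0.17 (adjusted p = 0.0161). Of 20 tested nuclear partners of these factors, 1 rose, near the share of all genes, and 3 fell, against 6.85% of genes tested. Their median was 0.16. Smarca4, the BRG1 chromatin remodeler, fell by 0.70 ± 0.14 (edgeR adjusted p = 0.00286), and Chd4, a subunit of the NuRD complex, by 1.00 ± 0.20 (adjusted p = 0.00303). Ctbp2, a corepressor, fell and Irf2bp2, a partner of VGLL4, rose. With library totals as the only scaling, Smarca4 (-0.03), Chd4 (-0.31), Btrc (0.05) and Ctbp2 (-0.21) did not pass (edgeR adjusted p = 0.96, 0.593, 0.938 and 0.73), and against the median of all genes, 0.69 there, each lay below it. Without Controls 1 and 2 and YAP5SA 3, Smarca4 had -0.52 (edgeR adjusted p = 0.182), Chd4 -0.73 (0.18), Btrc -0.34 (0.491), Ywhaz 0.54 (0.289), Ctbp2 -0.80 (0.0939) and Irf2bp2 0.95 (0.138). The further paralog Vgll1 had 0 counts in all libraries.

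Of 21 tested targets of YAP, TAZ and TEAD, 12 rose and 0 fell in the mean effect, against 8.53% and 6.85% of genes tested, with a median of 1.29. Tgfb2, a growth factor, rose by 2.53 ± 0.24 (edgeR adjusted p = 2.28e-06), and Amotl2 is on this list too. In YAP5SA against Control 12 rose, against 5.68% of genes tested, and in YAP5SA_MEF2A against MEF2A 6, against 1.61%. Without Controls 1 and 2 and YAP5SA 3, 5 of the 21 rose in the mean effect, against 1.29% of genes tested, with a median of 1.12. The members' changes on the log2 scale were thus above the list's median for Vgll3, Vgll4 and Tead4 and below it for Tead1.

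The 3 genes most like each changed member were taken by the smallest root mean square difference of log2 CPM, each centred on its mean over the 14 libraries, among about 11231 genes with a mean log2 CPM of at least 1. For Tead1 they were Agfg1 (0.127), Cap2 (0.131) and Gorasp2 (0.151), where Tead1 itself had an SD of 0.363. For Tead4 (SD 1.02) they were Gstcd (0.338), Sec61a1 (0.348) and Zfp507 (0.356). For Vgll3 (SD 2.75) they were Col4a3 (1.05), Ankrd2 (1.16) and Col12a1 (1.21). The difference tends to grow with a member's own SD, so it does not rank the members by closeness of match. For Vgll4 (SD 1.31) they were Khsrp (0.553), Dzip1l (0.585) and C1galt1c1 (0.588), and for Vgll2 (SD 1.19) Timp2 (0.424), Gmip (0.472) and Frmpd1 (0.511). These values describe likeness over libraries that share their groups and batches.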

How the data were processed

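Whole-number read counts per gene, not normalized, were deposited by the authors for 14 libraries. STAR, edgeR and limma and the build GRCm38 are named in the submitters' processing notes. The counting program, annotation release and strand setting are not given in the sources used here, and the libraries were polyA-selected and non-directional, per the labels' protocols. The labels gave each group, replicate number and batch. The 9 members and all lists were chosen with earlier results of these data known.

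Symbols, coordinates and exon lengths came from GENCODE vM21 by gene ID. Genes were kept by filterByExpr (minimum count 10, total 15), scaled by TMM and tested with edgeR 4.0.16 in R 4.3.3 by the quasi-likelihood F-test (robust, two-sided), fitted to all 14 libraries with terms for group and batch. Benjamini-Hochberg adjustment ran over all 17987 genes, with a threshold of 0.05. CPM used TMM-scaled totals and log2 CPM a prior count of 2. The fit was tested on simulated data. Named genes were the 9 members, the 2 called genes of smallest p in each pathway list, and the 3 genes most like each called member. Further genes were named after their values were seen. Marker lists are given by counts only, with some called genes named. With library totals as the only scaling, edgeR called 19.1% of genes higher and 0.3% lower in the mean effect. Alternatives were 3 other scalings, 2 filters, DESeq2 1.42.0, limma-voom (limma 3.58.1), other covariates, single batches and libraries left out. Library totals and leaving out Controls 1 and 2, or these and YAP5SA 3, were applied to the lists too, and the Vgll2 bound was computed without each library, choices made after seeing the data. DESeq2 gave Vgll2 no adjusted p. Sequences are from RefSeq.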

Additional observations from a re-analysis of the deposited data

Results flagged for a closer look

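The share of Tead1 among TEAD transcripts was 23.5% in Control 2 and lay far from the other Controls, which had 13.8% to 15.4%. Control 2 also had the highest mitochondrial share of the 14 libraries (67.5%) and the fewest genes detected (15125). It was the 1 library that stood apart among 22 groups checked for a distant value, where chance gives about 1 in 20.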

How the results depend on the processing

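The number of members called in YAP5SA against Control was 3 as reported, where 9.85% of all genes were called. It was 6 with no filter on low counts (8.59% of all genes), 6 with DESeq2 (16.3%) and 5 with limma-voom (12.4%). The replicate block in place of batch gave 1 (5.21%), as did leaving out Controls 1 and 2 and YAP5SA 3 (0.428%). With 1 library left out the number was 1 to 4 (3.08% to 16.7%), with Tead2 called lower without YAP5SA 2 (-1.41, edgeR adjusted p = 3.17e-04). In YAP5SA_MEF2A against MEF2A, 2 as reported (2.32% of all genes), it was 1 in batch 1 alone (1.87%). With 1 library left out it was 0 to 2 (0.441% to 3.8%). In the mean effect, 5 as reported (15.4%), it was 3 with the replicate block (10.6%) and 1 without Controls 1 and 2 and YAP5SA 3 (2.15%). With 1 library left out it was 3 to 6 (5.7% to 20.6%). In MEF2A against Control, 0 as reported (0.0167%), it was 1 with no filter (Vgll3, higher, 1.21%). With any 1 library left out it was 0 (0% to 0.571%). In batch 1 alone, with Controls 1 and 2 as its only Controls, it was 2 (2.96%). These were Tead3, higher (0.89), and Wwtr1, lower (-1.75). In batch 2 alone the changes were 0.03 for Tead3 and 0.68 for Wwtr1. The interaction, 0 as reported, had 1 with no filter (Vgll3, 0.206%) and 0 with any 1 library left out (0% to 0.0614%). YAP5SA_MEF2A against YAP5SA had 0 with any 1 library left out (0% to 1.27%).

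The Vgll3 share differed by 34.6 points with an exact permutation adjusted p of 0.0599 without batch strata and 0.111 within the replicate block, by 42.0 (0.0857) in batch 1, by 26.1 (0.2) without Controls 1 and 2 and YAP5SA 3, and by 30.3 to 41.2 with 1 library left out. The Tead1 share differed by 3.85 points (0.0333) without Controls 1 and 2 and by 2.01 to 3.76 with 1 library left out. The Wwtr1 share differed by -4.05 points in batch 1, by 8.21 without Controls 1 and 2, and by -1.22 to 6.29 with 1 library left out. Wwtr1 turned from -0.02 to 0.93 in the mean effect without Controls 1 and 2. The cause was not tested. Of the other values of single members, 1367 kept direction and call, 98 moved, 32 gained and 41 lost the call.

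Same-numbered libraries did not deviate together (r of -0.184 to 0.089 over 16 pairs, 0 over 0.1), so the reported fit does not pair them. The deviations are taken from group means over few libraries, so they cannot exclude a pairing. Library totals as the only scaling moved the median of all genes in the mean effect from 0.06 to 0.69 and turned Tead2 (0.15) and Yap1 (0.44), both below that median, and Wwtr1 (0.72), just above it, above 0. Vgll2, with 2 to 21 counts where detected, and Vgll3 in Control are limited by depth.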
